A study of Mus musculus with 65 samples.

Results

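CTCF and RAD21 ChIP-seq peaks of untreated LDB1-AID cells were set against each other on chromosomes 1 to 19 and X, and each was placed in 1 of 3 classes: both proteins, CTCF only or RAD21 only. Peaks of the 2 proteins were paired where they overlapped by 1 bp or more. The lists held 54223 CTCF and 33160 RAD21 peaks on these chromosomes, together 87383 of the 143220 peaks in the 9 peak lists of the series. They came from 4 of its 65 samples, 2 replicates for each antibody.

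The sublines derive from G1E-ER4, mouse erythroblasts grown as a line, which lacks its own GATA1 and carries GATA1 fused to an estrogen receptor domain. In LDB1-AID cells the cofactor LDB1, and in SMC3-AID cells the cohesin subunit SMC3, is fused to a degron, so that the protein is destroyed when auxin is added. All lists compared below came from cells labelled untreated, in which the degron tag was present but no auxin was given. Whether GATA1 was induced, and how many clones each subline stands for, is not given in the sources used here. The third list used throughout, 15223 RAD21 peaks of untreated SMC3-AID cells, combined 3 replicates. The YY1 list (12816 peaks) and the LDB1 list (10729 peaks) of untreated LDB1-AID cells combined 2 replicates each.

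CTCF is a zinc finger protein that binds a long DNA motif. Cohesin is a ring-shaped complex of SMC1, SMC3 and RAD21, in which RAD21 closes the ring, and it extrudes chromatin loops until it is stopped, most often at CTCF bound in the orientation that faces the moving ring. Cohesin is also found at active enhancers and promoters without CTCF, and in erythroid cells such elements are bound by GATA1, TAL1 and the cofactor LDB1. YY1 is a zinc finger protein found at promoters and enhancers.

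Each list gives positions alone. The replicates had been combined by the authors, so replicate error cannot be given, and read depth and peak height are unknown. Intervals in parentheses are 95% Wilson intervals unless named otherwise. They and all p-values cover counting error only, and they treat each peak as independent. Neighbouring peaks of 1 list are not independent samples, so the intervals can be too narrow and the p-values too small.

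About equal numbers of CTCF peaks lay with and without a called RAD21 peak, whereas most RAD21 peaks lay on CTCF peaks. Of the CTCF peaks, 26816 (49.5%, 49 to 49.9) overlapped a RAD21 peak and 27407 did not. Of the RAD21 peaks, 26833 (80.9%, 80.5 to 81.3) overlapped a CTCF peak and 6327 did not. Joined by overlap, the peaks formed 60548 sites, of which 26814 (44.3%) had both proteins, 27407 (45.3%) had CTCF only and 6327 (10.4%) had RAD21 only. Pairing was almost always 1 to 1. A site with both proteins consisted of 1 CTCF and 1 RAD21 peak in 26793 cases, of 1 CTCF and 2 RAD21 peaks in 19 and of 2 CTCF peaks and 1 RAD21 peak in 2.

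Where the proteins met, their peak midpoints were close but seldom identical. All peaks were 400 bp wide, so overlap allowed midpoints up to 399 bp apart. Whether a midpoint marks the summit of a peak is not given in the sources used here. All distances are therefore between interval midpoints and need not be distances between the bound proteins. Over the 26833 overlapping RAD21 peaks, the median distance to the CTCF midpoint was 55 bp, and the middle 50% of distances ran from 27 to 100 bp. A distance of at most 50 bp was found in 46.5% of pairs, of at most 100 bp in 75.4% and of at most 200 bp in 92.7%. The CTCF midpoint lay at the higher coordinate in 13349 pairs, at the lower in 13319 and at the same base in 165, so along the reference strand the offset had no preferred side. The strand of the CTCF motif was not analysed here, and an offset relative to the motif could therefore not be measured.

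The RAD21 peaks of SMC3-AID cells gave a scale for these distances. At the 13596 RAD21 peaks that overlapped both a CTCF peak and an SMC3-AID RAD21 peak, the median distance was 68 bp to CTCF and 34 bp to the RAD21 peak of the other subline. The middle 50% ran from 35 to 117 bp for CTCF and from 15 to 64 bp for RAD21. The RAD21 midpoint was nearer to the RAD21 midpoint of the other subline at 72% (71.2 to 72.7) of these sites, nearer to CTCF at 27.1% (26.4 to 27.9), and equally far at 128 sites. Measured from SMC3-AID cells, 14053 RAD21 peaks on a CTCF peak had a median distance of 66 bp to it, close to the 68 bp above. Both distances share the CTCF midpoint, so they are not independent measurements.

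**Figure D1:**
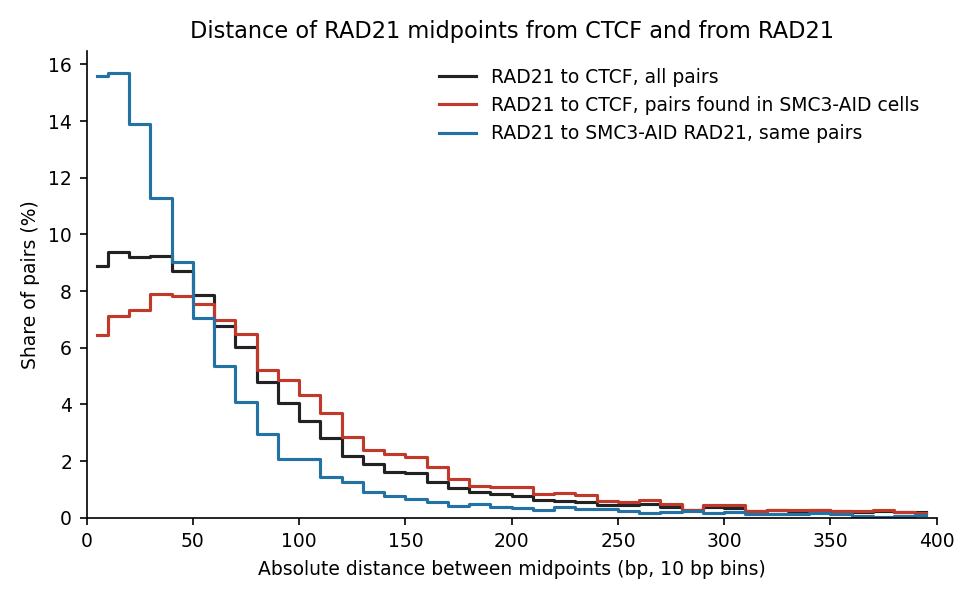
Share of peak pairs (%, vertical axis) by absolute distance between midpoints (bp, 10 bp bins). The black line shows all 26833 pairs of RAD21 and CTCF peaks, and the red and blue lines show the 13596 RAD21 peaks found with CTCF and in SMC3-AID cells, with their distance to CTCF (red, median 68 bp) and to the SMC3-AID RAD21 peak (blue, median 34 bp). The blue line is the most concentrated near 0.

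RAD21 midpoints were also compared with those of LDB1 and YY1 at shared sites. At RAD21 peaks on CTCF, the median distance was 140 bp to LDB1 (627 pairs) and 137 bp to YY1 (1685 pairs). Of these peaks, 191 of the 627 and 565 of the 1685 lay under 50 bp from CTCF, against 12192 of all 26833. Fewer of them thus lay that near CTCF, so the 55 bp to CTCF over all pairs is no matched comparison. At RAD21 peaks without CTCF, the median distance to LDB1 was 70 bp (2074 pairs, binomial 95% interval of the median 66 to 75 bp), so the midpoints were nearer there. The distance to YY1 was 140 bp without CTCF (1869 pairs, 133 to 146 bp), and the interval overlapped that of the 137 bp with CTCF (128 to 144 bp). RAD21 peaks without CTCF also varied more in position between sublines, with a median distance of 54 bp (49 to 62 bp) to the SMC3-AID RAD21 peak over 782 pairs. Of these pairs, 465 lay 400 to 999 bp from a CTCF midpoint. The median was not split by distance from CTCF, so it does not describe RAD21 peaks far from CTCF alone.

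RAD21 peaks on CTCF were found in the other subline far more often than RAD21 peaks elsewhere. Over all RAD21 peaks of LDB1-AID cells, 43.4% overlapped an SMC3-AID RAD21 peak. The share was 50.7% (50.1 to 51.3) at the 26833 RAD21 peaks with CTCF and 12.4% (11.6 to 13.2) at the 6327 without CTCF. The odds ratio was 7.28 (6.73 to 7.88). By Fisher's exact test, two-sided and adjusted over 6 tests by Benjamini-Hochberg, p was at or below 1e-300, the smallest value written. The SMC3-AID list is the shorter of the RAD21 lists, so the shares compare classes and do not measure loss. On each of the 20 chromosomes the share was higher with CTCF, by 32.9 to 44.3 percentage points. Among peaks without LDB1 or YY1 the odds ratio was 5.5 (4.98 to 6.07).

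Seen from CTCF, SMC3-AID RAD21 peaks lay almost only on CTCF peaks that had RAD21 in LDB1-AID cells. An SMC3-AID RAD21 peak lay on 25.9% of all CTCF peaks, on 50.6% (50 to 51.2) of the 26816 with RAD21 in LDB1-AID cells, and on 1.73% (1.58 to 1.89) of the 27407 without. The odds ratio was 58.2 (53 to 64; Fisher's exact test, adjusted p at or below 1e-300). Both lists mapped RAD21 in untreated cells, so a high value was to be foreseen. It measures how far the 2 RAD21 lists overlap at CTCF peaks and is no separate trait of these peaks. Of the 473 CTCF-only peaks that did carry an SMC3-AID RAD21 peak, 288 (60.9%, 56.4 to 65.2) had a RAD21 midpoint of LDB1-AID cells less than 1 kb away, just outside the overlap. Over all 27407 CTCF-only peaks, 1228 had a RAD21 midpoint that close. In the other direction, 13636 of the 15223 SMC3-AID RAD21 peaks (89.6%, 89.1 to 90.1) lay on both proteins, 770 (5.06%) on RAD21 only, 417 (2.74%) on CTCF only and 400 (2.63%) on neither.

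Within the co-occupied class, presence in SMC3-AID cells was tied to the distance between the midpoints. The share was lowest where the RAD21 and CTCF midpoints were closest, at 38.3% (37.1 to 39.5) of the 6204 RAD21 peaks with a distance under 25 bp. It was 43.4% (42.2 to 44.7) from 25 to 49 bp and 53.4% (52.3 to 54.5) from 50 to 99 bp. It was highest from 100 to 199 bp, at 66.4% (65.1 to 67.8) of 4717 peaks, and from 200 to 299 bp, again at 66.4% (63.8 to 68.8) of 1353 peaks. From 300 to 399 bp it was 55.5% (51.6 to 59.2) of 651 peaks. These bins were chosen after the data were seen, and the differences between them have intervals but no test.

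The shares were also counted in subsets of the same pairs. The distance bins were chosen in these pairs, so the subsets describe the pattern and are no independent support for it. The share was 40.8% (39.9 to 41.7) under 50 bp and 66.4% (65.2 to 67.6) from 100 to 299 bp for all pairs. Without LDB1 or YY1 peaks, which left 11487 of 12192 and 5329 of 6070 peaks, the shares were 40.7% and 68.8%. For RAD21 peaks with no other RAD21 peak within 1 kb, which left 12061 and 5943, they were 40.9% and 66.9%. On each of the 20 chromosomes the share was higher at 100 to 299 bp, by 18.8 to 32.7 percentage points. Peak height was not in the lists, so its part in this pattern was not tested.

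RAD21 peaks without CTCF were divided by their distance from the nearest CTCF peak. The 1237 RAD21 peaks whose midpoint was 400 to 999 bp from a CTCF midpoint were found in SMC3-AID cells at 37.6% (34.9 to 40.3). This was near the 38.3% of the pairs on CTCF with the closest midpoints. The 5090 RAD21 peaks at 1 kb or more from CTCF were found at 6.23% (5.6 to 6.93), with 6.5% from 1 to 5 kb, 5.29% from 5 to 25 kb and 7.6% beyond 25 kb. The RAD21-only class thus held a set within 1 kb of CTCF with 465 of its 782 peaks found in SMC3-AID cells, and a larger set farther away with 317. Leaving out the peaks 400 to 999 bp away, a choice made after the data were seen, raised the odds ratio for presence with CTCF from 7.28 to 15.5 (13.8 to 17.4).

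**Figure D2:**
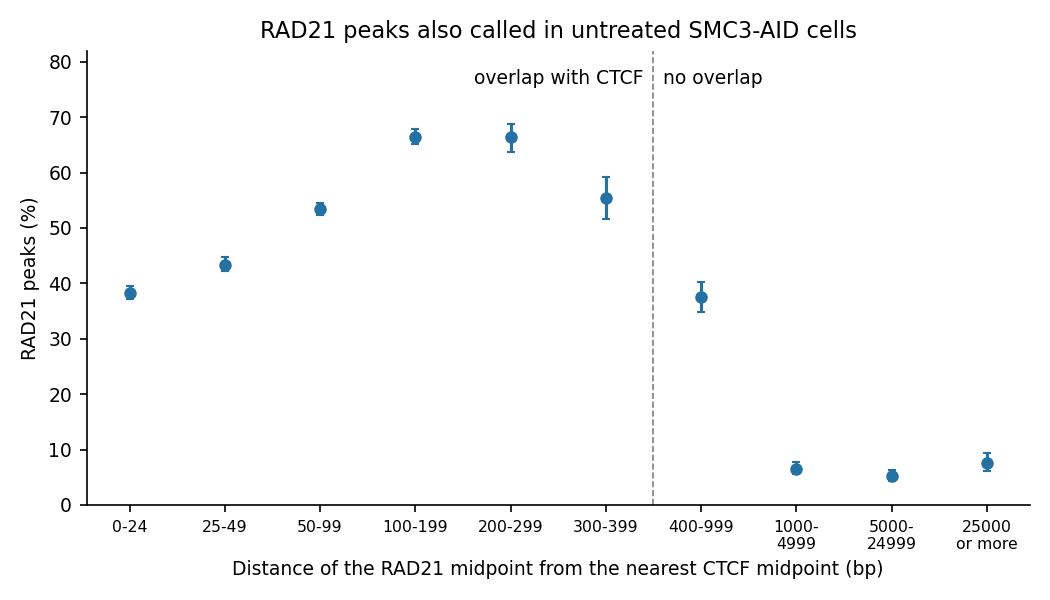
Share of RAD21 peaks of LDB1-AID cells that overlap a RAD21 peak of untreated SMC3-AID cells (%, vertical axis) by distance of the RAD21 midpoint from the nearest CTCF midpoint (bp, bins of unequal width). Points are shares with 95% Wilson intervals, and the dashed line marks the limit of overlap; the share is 38.3% under 25 bp, 66.4% from 100 to 299 bp and 6.23% over all peaks at 1 kb or more.

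LDB1 and YY1 marked the RAD21 peaks away from CTCF. A YY1 peak lay on 10.7% of all RAD21 peaks, on 6.28% (6 to 6.58) of those with CTCF and on 29.5% (28.4 to 30.7) of those without. The odds of YY1 were 6.26 times higher without CTCF (95% interval 5.82 to 6.73; Fisher's exact test, adjusted p at or below 1e-300). An LDB1 peak lay on 8.15% of all RAD21 peaks, on 2.34% with CTCF and on 32.8% without, and its odds were 20.4 times higher without CTCF (18.5 to 22.4; Fisher's exact test, adjusted p at or below 1e-300). LDB1 and YY1 were both present at 11.8% (11 to 12.6) of RAD21 peaks without CTCF and at 0.738% (0.642 to 0.848) of those with CTCF. Neither was present at 49.5% (48.3 to 50.7) of RAD21 peaks without CTCF, or 3132 of the 6327, by the LDB1 and YY1 lists of untreated LDB1-AID cells. Among RAD21 peaks with CTCF, neither was present at 92.1% (91.8 to 92.4).

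Both proteins became more frequent with distance from CTCF, including within the co-occupied class. LDB1 lay on 1.39% of RAD21 peaks under 25 bp from CTCF, 3.46% from 100 to 199 bp, 7.68% (5.87 to 9.98) from 300 to 399 bp and 11.2% (9.6 to 13.1) from 400 to 999 bp. It then reached 31.5% (29.5 to 33.6) from 1 to 5 kb, 41.3% (39.2 to 43.4) from 5 to 25 kb and 44.1% (41 to 47.1) beyond. YY1 went from 4.64% under 25 bp to 18.7% (15.9 to 21.9) from 300 to 399 bp and 34% (31.9 to 36.1) from 1 to 5 kb. Beyond 25 kb the YY1 share was 24.9% (22.3 to 27.6), below that at 1 to 5 kb, while the LDB1 share was highest there.

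**Figure D3:**
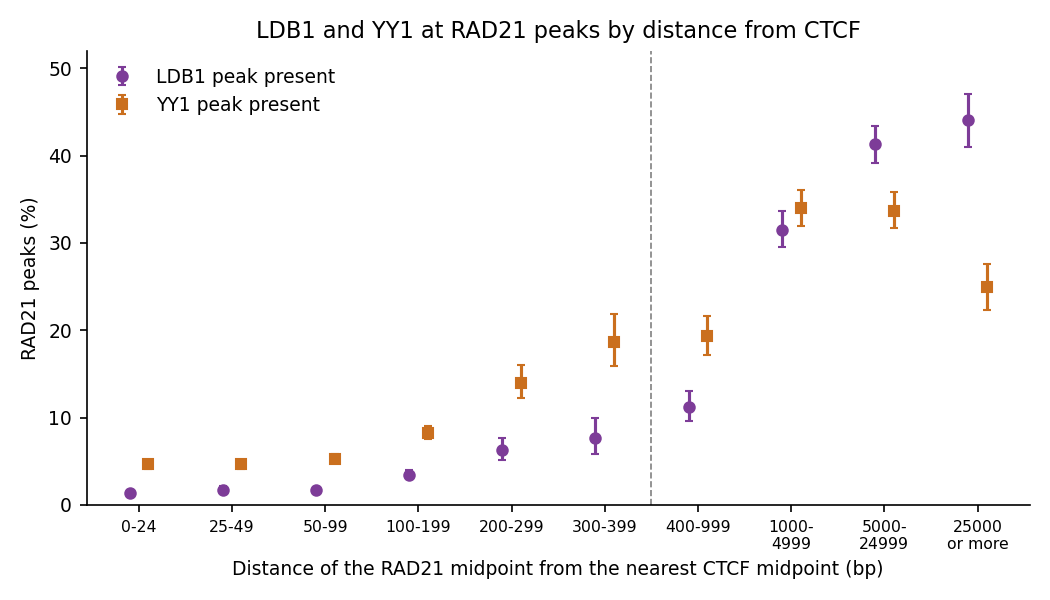
Share of RAD21 peaks with an LDB1 peak (circles) or a YY1 peak (squares) (%, vertical axis) by distance of the RAD21 midpoint from the nearest CTCF midpoint (bp, bins of unequal width), with 95% Wilson intervals; the dashed line marks the limit of overlap. LDB1 goes from 1.39% under 25 bp to 44.1% beyond 25 kb, and YY1 is highest, at 34%, from 1 to 5 kb.

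Far from CTCF, presence in SMC3-AID cells was low with or without these partners. At 1 kb or more from CTCF, RAD21 peaks with LDB1 were found in SMC3-AID cells in 185 of 1935 cases (9.56%, 8.33 to 11). Those with YY1 and no LDB1 were found in 29 of 933 (3.11%, 2.17 to 4.43), and those with neither in 103 of 2222 (4.64%, 3.84 to 5.59). The share with LDB1 was above the intervals of the other groups. Close to CTCF, from 400 to 999 bp, 397 of 910 RAD21 peaks with neither protein were found (43.6%, 40.4 to 46.9). Over all 1237 RAD21 peaks at this distance 465 were found (37.6%, 34.9 to 40.3), so the share was lower for those with LDB1 or YY1. Among RAD21 peaks on CTCF, the share was 45.7% (43.6 to 47.8) with LDB1 or YY1 and 51.1% (50.5 to 51.7) with neither.

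At CTCF peaks, LDB1 and YY1 were rare, and both were more frequent where RAD21 was present. YY1 lay on 4.04% of all CTCF peaks, on 5.89% (5.62 to 6.18) with RAD21 and on 2.23% (2.06 to 2.41) without, and the odds ratio was 2.74 (2.49 to 3.01, adjusted p = 7.53e-107 by Fisher's exact test). LDB1 lay on 1.47% of all CTCF peaks, on 2.07% (1.91 to 2.25) with RAD21 and on 0.872% (0.769 to 0.989) without, and the odds ratio was 2.41 (2.07 to 2.8, adjusted p = 5.2e-32 by Fisher's exact test).

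Along the chromosomes, sites with both proteins and CTCF-only sites had similar spacing, and RAD21-only sites were both sparser and more grouped. Which of the first 2 classes had the lower median depended on the overlap rule. The median distance to the nearest site of the same class was 13.8 kb for both proteins (middle 50% 5.24 to 32.8 kb), 14.3 kb for CTCF only (5.28 to 37 kb) and 21.3 kb for RAD21 only (3.52 to 77.2 kb). RAD21-only sites thus had the lowest lower quartile and the highest upper quartile of the 3 classes. A site of the same class lay within 1 kb at 5.01% of RAD21-only sites, 2.43% of CTCF-only sites and 0.53% of sites with both. Within 10 kb the shares were 37.9%, 40.3% and 40.9%, although there were 6327 RAD21-only sites against 27407 and 26814 of the other classes.

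The class of the nearest site of any class showed the same grouping. For RAD21-only sites the nearest site was another RAD21-only site in 26.9% of cases, whereas 10.4% of all sites were of that class. For sites with both proteins the nearest was of the same class in 48.4% of cases, against 44.3% of all sites, and for CTCF-only sites in 48.1%, against 45.3%. For RAD21-only sites the nearest site had both proteins in 35.3% of cases and CTCF only in 37.8%, each below its share of all sites. The median distance from a RAD21-only site was 12.9 kb to the nearest site with both proteins and 13.5 kb to the nearest CTCF-only site. A CTCF-only site lay within 1 kb of 15.7% of RAD21-only sites, and a site with both within 1 kb of 4.01%.

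**Figure D4:**
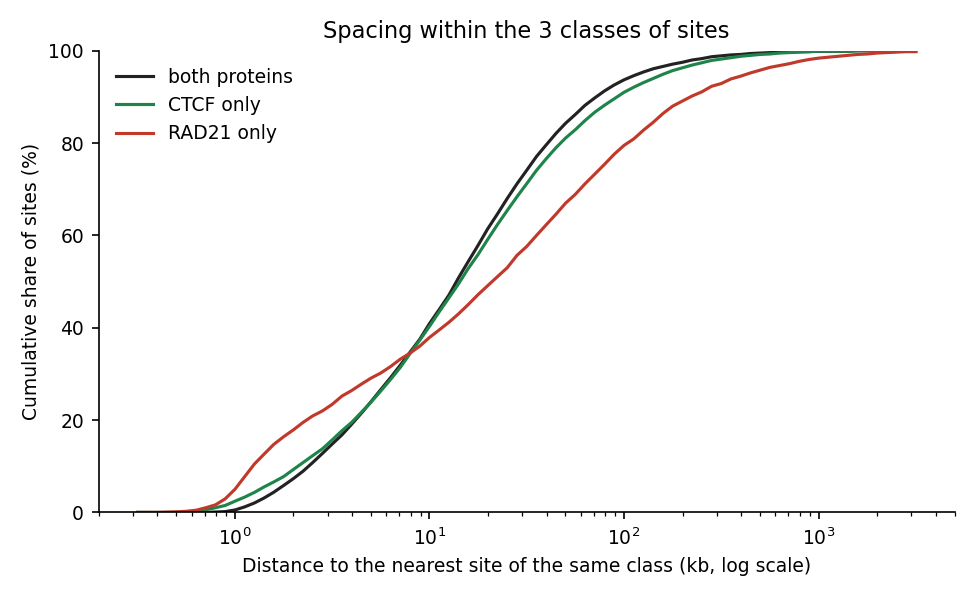
Cumulative share of sites (%, vertical axis) by distance to the nearest site of the same class (kb, log scale), for sites with both proteins, with CTCF only and with RAD21 only. The RAD21-only line is the highest below about 5 kb and the lowest above 10 kb, and the medians are 21.3 kb for it, 13.8 kb for both and 14.3 kb for CTCF only.

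Consecutive sites with both proteins bounded 26794 intervals with a median length of 29.9 kb (middle 50% 10.8 to 74.1 kb). Of these, 12742 (47.6%) held no further CTCF or RAD21 peak, and their median length was 13.4 kb. At least 1 CTCF-only site lay in 12846 intervals (47.9%, median 54.5 kb) and at least 1 RAD21-only site in 3871 (14.4%, median 62.8 kb). Longer intervals have more room for a site, so the density was compared as well. In the shortest 25% of the intervals there were 29.2 CTCF-only and 9.13 RAD21-only sites per Mb, and in the longest 25% 6.85 and 1.58 per Mb. CTCF-only and RAD21-only sites were thus both denser where sites with both proteins were dense.

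The sites were also counted in windows of 1 Mb. Among 2581 windows the median was 7 sites with both proteins, 7 CTCF-only sites and 1 RAD21-only site. The 10% of windows with the most sites of a class held 32.4% of sites with both, 33.9% of CTCF-only sites and 45.5% of RAD21-only sites. No RAD21-only site was present in 1158 windows (44.9%), against 405 (15.7%) without a site with both and 226 (8.76%) without a CTCF-only site. Both measures are higher for a sparser class, and RAD21-only sites had a mean of 2.45 per window against 10.4 for both and 10.6 for CTCF only. The variance of the window counts divided by their mean, which is itself higher for a denser class of equal unevenness, was 5.42 for RAD21 only, 10.7 for both and 11.6 for CTCF only, so the classes were not ranked by unevenness at this scale.

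Windows are named with mm9 coordinates counted from 1. The 59 sites with both proteins at chr11:69000001-70000000 were the most in any window, beside 46 CTCF-only and 12 RAD21-only sites. The next were chr10:79000001-80000000 and chr10:80000001-81000000 with 58 each. CTCF-only sites were most numerous at chr17:29000001-30000000, with 66 beside 42 sites with both and 21 with RAD21 only. They numbered 61 at chr11:98000001-99000000 and at chr17:35000001-36000000. RAD21-only sites reached 27 in 3 windows, and at each of these LDB1 lay on 11 to 13 of them and YY1 on 9 or 10. At chr7:87000001-88000000, 2 of the 27 were found in SMC3-AID cells, at chr11:87000001-88000000, 4 were, and at chr19:32000001-33000000, 2 were. Over all RAD21-only peaks, LDB1 lay on 32.8%, YY1 on 29.5% and SMC3-AID RAD21 on 12.4%. In each of these windows the LDB1 and YY1 counts were above those shares, while the SMC3-AID counts lay below or above theirs. With 27 sites in a window, these differences were not tested. Genes were not assigned, because no annotation of this build was used here.

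The longest runs of sites of 1 class differed in length. RAD21-only sites stood as single sites between other classes in 3685 of their 4676 runs. Runs of 2 or more held 41.8% of RAD21-only sites, a class with 10.4% of all sites. They held 72.2% of sites with both, with 44.3% of all sites, and 71.6% of CTCF-only sites, with 45.3%. A more frequent class forms longer runs by its number alone, so these shares do not rank the classes by grouping. The longest run of sites with both had 12 members, a length reached 3 times, the first at chr2:113647839-115390318.

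The longest CTCF-only run had 49 sites and the next had 28. It covered 2043.2 kb at chr5:126025459-128068633, with gaps of 1.4 to 228.3 kb between neighbours (median 21.8 kb), and by definition it held no RAD21 peak. It also held 0 YY1, 0 LDB1 and 0 SMC3-AID RAD21 peaks, which were rare at CTCF-only peaks in general, at 2.23%, 0.872% and 1.73%. Chromosome 5 had the lowest share of CTCF peaks with RAD21, at 45.2%, and without this run the share was 45.8% (44.2 to 47.4).

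The longest RAD21-only run had 13 sites at chr8:10708497-11003614, 295.1 kb in length. Its members lay 2.65 to 151.2 kb from the nearest CTCF peak. LDB1 lay on 4 of the 13, YY1 on 3, both on 2 and neither on 8. In SMC3-AID cells 1 member was found, at chr8:10827578-10827977, which had neither LDB1 nor YY1. These counts were near the shares of the whole RAD21-only class, 32.8% for LDB1, 29.5% for YY1 and 12.4% for SMC3-AID RAD21.

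Density varied more between chromosomes than the pairing of the proteins. Per Mb between the first and last peak, sites with both proteins numbered 17.5 on chromosome 11 and 16.4 on chromosome 19, with a median of 10.2 over the 20 chromosomes. The lowest autosome was chromosome 14 with 8.39, and X had 4.04. CTCF-only sites ranged from 4.2 per Mb on X to 19.1 on chromosome 11, and RAD21-only sites from 0.694 on X to 4.21 on chromosome 19. The ratio of the highest to the lowest density was 4.32 for both proteins, 4.54 for CTCF only and 6.07 for RAD21 only, each with X as the lowest. Over the autosomes alone the densities ran from 8.39 to 17.5, from 8.01 to 19.1 and from 1.8 to 4.21 per Mb. Shares have an upper limit and densities do not, so their ranges are not on the same scale.

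The shares of CTCF peaks with RAD21 and of RAD21 peaks with CTCF stayed in a narrow band. CTCF peaks with RAD21 ranged from 45.2% on chromosome 5 to 54% on chromosome 18, and RAD21 peaks with CTCF from 77.4% on chromosome 12 to 85.3% on X. The share of RAD21 peaks with CTCF that were found in SMC3-AID cells ran from 42.4% on chromosome 12 to 56.4% on chromosome 3. For RAD21 peaks without CTCF it ran more widely, from 4.46% on X (5 of 112 peaks, 1.92 to 10) to 16.9% on chromosome 1 (13.8 to 20.5).

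**Figure D5:**
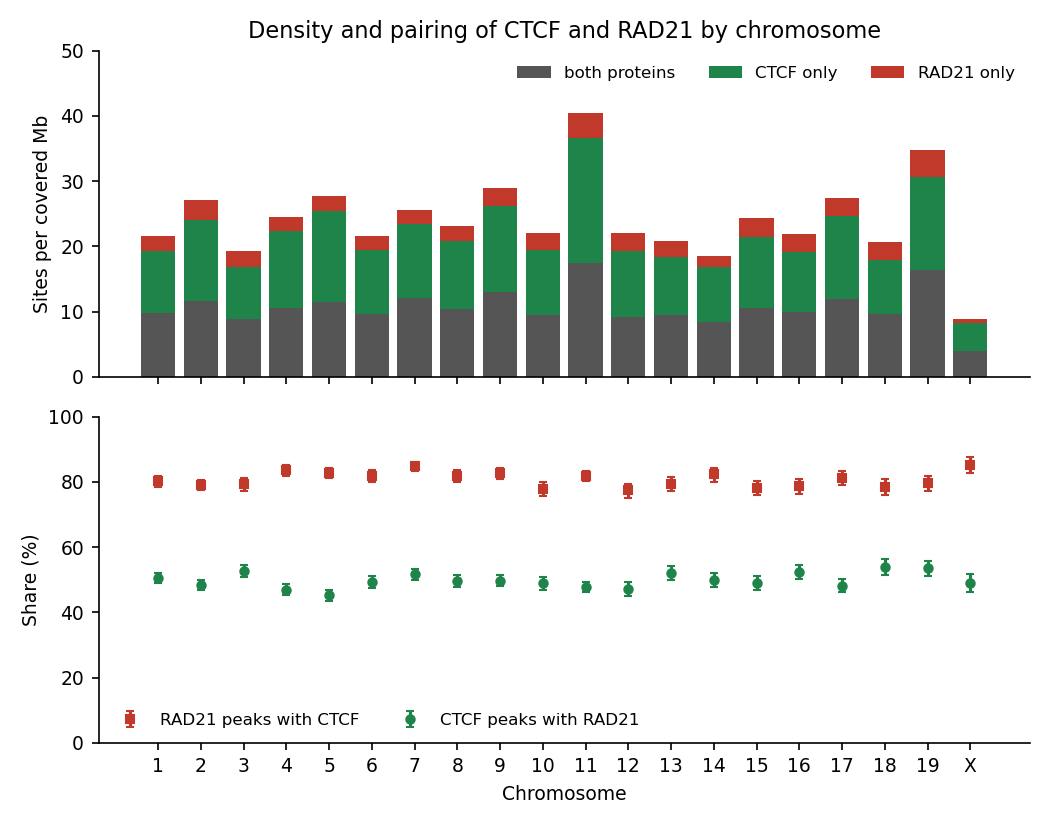
Top, sites per Mb between the first and last peak of each chromosome, stacked by class (both proteins, CTCF only, RAD21 only). Bottom, share of RAD21 peaks with CTCF and of CTCF peaks with RAD21 (%), with 95% Wilson intervals; densities differ more than 4 times between X and chromosome 11 while the shares stay at 77.4 to 85.3% and 45.2 to 54%.

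The X chromosome stood apart in density and in the distance between the peak midpoints of the proteins. Per Mb, X had 0.372 times the autosomal density of sites with both, 0.378 times that of CTCF-only sites and 0.269 times that of RAD21-only sites. The median distance between RAD21 and CTCF midpoints was 44 bp on X, and 52 to 60 bp on the autosomes. On X, 56.4% (52.6 to 60.2) of the 652 RAD21 peaks with CTCF lay under 50 bp from it, against 45.2% (44.6 to 45.8) on the autosomes, and 12.3% (9.97 to 15) against 22.9% (22.4 to 23.4) lay at 100 to 299 bp. Found in SMC3-AID cells were 43.1% (39.3 to 46.9) of these peaks on X and 50.9% (50.3 to 51.5) on the autosomes. Within distance classes, X had 37.2% (32.4 to 42.3) under 50 bp and 62.5% (51.5 to 72.3) at 100 to 299 bp, against 40.9% and 66.5% on the autosomes, which lay inside the wider intervals of X. The number of X chromosomes in these cells is not given in the sources used here, and its part in these values was not tested.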

How the data were processed

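Peak lists were deposited by the authors as intervals with a chromosome, start and end, and hold no score, count or p-value. The submitters' processing notes name Bowtie2, MACS2 2.2.9.1, deepTools 3.5.1 and the build mm9, with no role or order. Replicates had been combined into 1 list per group. The threshold and the consensus rule are not given in the sources used here. Depth is unknown, and a list can be longer through depth, antibody, calling or occupancy.

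Overlaps were computed from midpoints with Python 3.11.15, numpy 2.4.6 and pandas 2.3.3, matched bedtools 2.31.1 with a difference of 0 peaks, and were tested on simulated data. Fisher's exact tests, two-sided, and Wilson intervals came from scipy 1.17.1. P-values were adjusted by Benjamini-Hochberg over 6 tests. Odds ratios carry Woolf 95% intervals. A p under 1e-300 was written as that bound. Sites were chains of overlapping CTCF and RAD21 peaks. Densities used the span between the first and last peak of a chromosome.

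Named regions were, for each class, the 3 windows of 1 Mb with the most sites and the longest run. Members, lists and tests were chosen with earlier results of these data known. Alternatives were other overlap rules, autosomes only, isolated peaks, merging within 1 kb and, for some results, subsets by other peaks. Sequence and gene annotation of the build were not used here.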

Additional observations from a re-analysis of the deposited data

Results flagged for a closer look

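Peaks outside chromosomes 1 to 19 and X entered none of the comparisons. There were 63 CTCF peaks, of which 37 (58.7%, Wilson 95% interval 46.4 to 70) overlapped a RAD21 peak. There were 44 RAD21 peaks, of which 37 (84.1%, 70.6 to 92.1) overlapped a CTCF peak. Mitochondrial DNA held 7 of these CTCF peaks and 5 of these RAD21 peaks, and all 5 RAD21 peaks overlapped a CTCF peak.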

How the results depend on the processing

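Of 64 alternative values for 12 results, 56 kept the direction and side of the threshold, a count within 1.5 times, or a median within its binomial 95% interval, and 8 moved. All 38 alternative odds ratios, 6 of them chosen after the data were seen, stayed on the same side of 1 and past the threshold. Their size depended on the rule. For SMC3-AID RAD21 at RAD21 peaks with CTCF they ran from 3.85 under the 50% overlap rule to 15.5 without peaks 400 bp to 1 kb apart, and at CTCF peaks with RAD21 from 24.6 to 143.7 under the same alternatives. For LDB1 at RAD21 peaks they ran from 0.039 to 0.0767. The median distance of RAD21 from CTCF was 68 bp for pairs with an SMC3-AID RAD21 peak. With 50% overlap of both peaks the median spacing was 15.3 kb for both proteins, 13 kb for CTCF only and 19 kb for RAD21 only. The median for both proteins was thus above that for CTCF only under this rule, and below it under the main rule. With a gap of at most 1 kb the median spacing was 14 kb for both proteins, 16 kb for CTCF only and 29.6 kb for RAD21 only. With merging within 1 kb it was 14.9 kb for CTCF only and 24.6 kb for RAD21 only. These alternatives by construction change which sites enter a class. No paired analysis was possible because the replicates had been combined in each list, and no replicate could be left out for the same reason.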

Other observations

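Interval starts were even numbers more often than odd in each list examined for this, at 74.8% (Wilson 95% interval 74.4 to 75.1) of CTCF, 74.7% (74.2 to 75.2) of RAD21 and 75.5% (74.8 to 76.1) of SMC3-AID RAD21 peaks. How the consensus positions were rounded is not given in the sources used here.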
